A study of Mus musculus with 4 samples.

Results

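The 10 genes described here belong to the unfolded protein response of the endoplasmic reticulum (ER) and were taken by name from 53295 features of the deposited count table: the chaperone and co-chaperone genes Hspa5, Hsp90b1, Calr, Sdf2l1 and Dnajb9, the disulfide isomerase gene Pdia4, the ER degradation gene Herpud1, and the transcription factor genes Xbp1, Atf4 and Ddit3. The cells, cultured past passage 20, were germline stem cells from female C57BL/6 mice. RNA was taken with or without spermidine (labelled SPD), a polyamine, with profiles at 4 h, and each group held 2 libraries. The sources used here give no dose and do not say whether the libraries came from separate cultures. The p-values therefore cover the spread among these 4 libraries alone, and that spread may be technical. An ER list of 91 genes, these 10 included, was used to place them in the pathway.

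The unfolded protein response is the transcriptional programme by which a cell adjusts its ER, the compartment where secreted and membrane proteins fold. Unfolded protein activates the ER membrane sensors IRE1, PERK and ATF6. IRE1 cuts a short intron out of Xbp1 mRNA, PERK slows translation while favouring that of ATF4, and ATF6 is released as a transcription factor. The factors made in this way raise chaperones, disulfide isomerases and the machinery that sends misfolded protein to the proteasome.

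Total counts were 7206176 and 7128901 for control and much lower, 787600 and 1718944, with spermidine. A single row, AY036118, took 1.68% and 1.64% of the control counts and 29.6% and 30.7% of the spermidine counts. On 1463 olfactory and vomeronasal receptor gene models, a measure of counts on genes these cells should not use, spermidine replicate 1 had 3.18 counts per kb, against 0.0634 and 0.153 in the controls and 0.176 in spermidine replicate 2. The 9 germline markers did not move one way. Ddx4 had 1 count and Dazl 3 in all libraries together and Nanos3 none, on 434, 432 and 12 own bases (those on which a gene could be counted), so these low counts do not show absence. Prdm1 had 0 counts in both controls and 11 and 0 with spermidine on 3311. Those 11 are about what the receptor background of spermidine replicate 1, 3.18 counts per kb, would give. Tex19.1 had 1955 and 1770 control counts against 36 and 25, whereas Dppa3 had 2 and 3 against 9 and 263, Pou5f1 0 and 0 against 2 and 42, Ifitm3 49 and 132 against 72 and 146, and Dnd1 27 and 29 against 2 and 37.

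Which of the 10 genes could be seen at all was set by the way the table was counted. Its rows are RefSeq transcripts, and the 49975 rows with no bases to themselves took no more than 0.0014% of a library's counts, as when reads that overlap more than 1 row receive no count. A gene was therefore counted on the bases that belong to 1 row only, called its own bases. Hsp90b1 (chromosome 10, 86690841 to 86705444, minus strand, GRCm38), Calr (chromosome 8, 84842088 to 84846931, minus), Sdf2l1 (chromosome 16, 17130138 to 17132383, minus) and Dnajb9 (chromosome 12, 44205897 to 44210068, minus) each had a single row with every exon base its own. Pdia4 (chromosome 6, 47796141 to 47813512, minus) kept 810 of 2481 bases, and Atf4 (chromosome 15, 80255184 to 80257545, plus) kept 283 of 1729.

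The other 4 genes were close to invisible. Hspa5 (chromosome 2, 34772090 to 34776529, plus), which encodes BiP, the chaperone that holds the ER sensors inactive, kept 82 bases and had 1 count in each control and 0 in each spermidine library. Herpud1 (chromosome 8, 94386500 to 94395358, plus) kept 3 bases because a model transcript without a symbol shares 1868 of its bases, and it had no count. Ddit3 (chromosome 10, 127290793 to 127296288, plus), which encodes CHOP, a factor tied to cell death under lasting ER stress, kept 0 bases and had no count. A model transcript without a symbol that shares 860 bases with Ddit3 had 54 and 70 control counts and 15 and 45 spermidine counts on 1561 bases of its own, and these were not assigned to Ddit3. None of these values shows that a gene was silent.

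**Figure D1:**
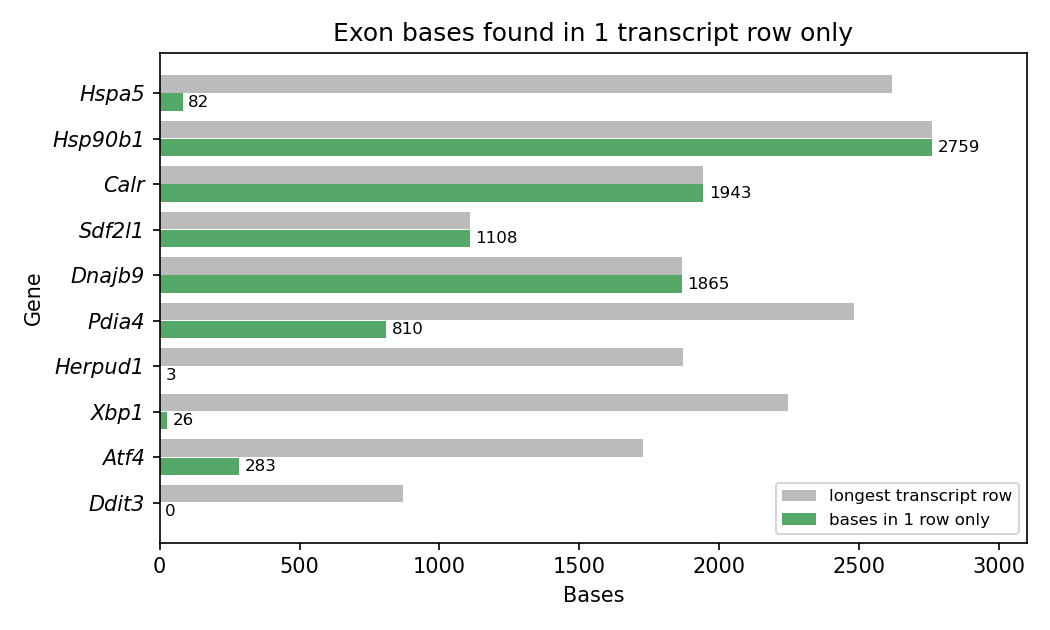
Horizontal bars give, for each of the 10 genes, the exon length in bases of its longest transcript row (grey) and the bases found in 1 row only (green, with the number). Hsp90b1, Calr, Sdf2l1 and Dnajb9 keep their whole length, whereas Hspa5, Herpud1, Xbp1 and Ddit3 keep 82 bases or fewer.

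Xbp1 (chromosome 11, 5520641 to 5525993, plus) shows the limit most directly. Its unspliced and spliced transcripts are separate rows, and the only bases that tell them apart are the 26 at chr11:5524278-5524303. They stand for the intron removed by IRE1. Because a G both opens this stretch and follows it, the rows alone do not fix the exact ends of the intron. The stretch is shown because a read across it would mark unspliced Xbp1 mRNA. From the GENCODE M21 transcript on the plus strand of GRCm38, at chr11:5524253-5524328, it reads as follows, with the 26 bases in capitals:
Xbp1: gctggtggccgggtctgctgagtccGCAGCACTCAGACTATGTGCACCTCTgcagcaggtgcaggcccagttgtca
Any read longer than 26 bases that crosses this stretch also touches exon bases that both rows share, and both rows had 0 counts in all 4 libraries. The table therefore holds no value for Xbp1 level or splicing, the usual readout of the IRE1 branch.

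Several of the 10 genes carry the ER stress response element, a promoter sequence bound by ATF6 together with a CCAAT-binding factor. RefSeq promoter windows of GRCm38.p6, from 250 bases before to 50 after the start site, were found for all 10. The element was searched on both strands as CCAAT followed, after any 9 bases, by CCACG. It stood in the windows of Hspa5, Hsp90b1 and Calr, and in those of 37 of 27025 genes (0.137%). With at most 1 mismatch it stood in 6 of the 10 windows, adding Herpud1, Ddit3 and Pdia4, against 1.72% of genes. A related element, ATTGG followed after any 1 base by CCACG, stood in Herpud1 alone of the 10 and in 0.0444% of genes. The genes and the elements were both chosen from what is known of this response, so the matches are no independent result. Parts of the upstream windows are printed 5′ to 3′ along each gene's strand to show where the shared letters lie, and capitals mark the fixed positions of each match:
Hspa5: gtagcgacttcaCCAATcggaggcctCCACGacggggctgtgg
Hsp90b1: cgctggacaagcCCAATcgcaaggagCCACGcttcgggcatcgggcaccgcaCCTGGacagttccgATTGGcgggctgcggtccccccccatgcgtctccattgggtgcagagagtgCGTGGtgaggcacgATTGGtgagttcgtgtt
Calr: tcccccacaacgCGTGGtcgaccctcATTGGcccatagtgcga
Pdia4: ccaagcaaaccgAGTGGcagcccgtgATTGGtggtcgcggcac
Herpud1: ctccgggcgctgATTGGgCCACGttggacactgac
These stretches lie at chr2:34772013-34772055 (plus), chr10:86705521-86705668 (minus), chr8:84847063-84847105 (minus), chr6:47813590-47813632 (minus) and chr8:94386365-94386399 (plus). Hsp90b1 held 2 exact matches, beginning 212 and 107 bases before the start site, and a match with 1 mismatch between them. The match in Pdia4 has 1 mismatch and lies on the opposite strand, as the Calr match does. The Herpud1 stretch shows the related element only. Its match with 1 mismatch to the first element and that of Ddit3 are not printed. No match to these elements was found in the windows of Sdf2l1, Dnajb9, Atf4 and Xbp1, which says only that these letters are not in those windows.

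Of the 10 genes, 6 passed the low-count filter and were compared between spermidine and control: Sdf2l1 and Pdia4 fell, and Hsp90b1, Calr, Dnajb9 and Atf4 did not pass the test. The fit was edgeR's quasi-likelihood test over 7836 genes, with calls at a Benjamini-Hochberg adjusted p under 0.05. The 2 genes called lower and 0 called higher are to be read against 3.99% of all tested genes called lower, 24.8% called higher and 28.8% called in either direction. The median log2 fold change was -0.60 over the 6 genes and 0.23 over all tested genes. That all-gene median moved to 0.37 with upper-quartile scaling, where the median of the 6 was -0.50. It also moved with the genes kept, to 0.06 with 1 CPM asked of all libraries (-0.26 for the 6). With no low-count filter it was 3.56, and with the receptor background subtracted it was -0.0066 (-0.36 for the 6). Fold changes are best read against the all-gene median of the same fit, which is no fixed reference.

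Sdf2l1 encodes a soluble ER protein that works with J-domain co-chaperones of BiP. Its TMM-scaled level was 630.7 and 991.5 CPM (the count scaled to the effective library size) in control cells, against 162.5 and 201.3 CPM with spermidine. Both spermidine libraries lay below both controls, and the groups did not overlap. The log2 fold change was -2.05 ± 0.54 (SE), a 4.14-fold lower level (adjusted p = 0.021, edgeR's quasi-likelihood test). Behind it stood 4370 and 6880 control counts and 166 and 285 spermidine counts, where the receptor background would give 3.53 counts in spermidine replicate 1.

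Pdia4, an isomerase that forms and reshuffles disulfide bonds in ER client proteins, had 369.9 and 365.2 CPM in control cells and 98.9 and 132.1 CPM with spermidine. The controls were nearly equal, and the groups did not overlap. The log2 fold change was -1.57 ± 0.51 (adjusted p = 0.0478, edgeR's quasi-likelihood test), close to the threshold. Its adjusted p was above the threshold in 11 of 16 alternatives, among them RLE scaling (0.0513) and limma-voom (0.0545), and ranged from 0.0118 to 0.375, while the log2 fold change stayed between -2.03 and -0.81.

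The call of Sdf2l1 held in 9 of 16 alternatives and its log2 fold change stayed between -2.52 and -1.32 (adjusted p 0.00328 to 0.335, edgeR, DESeq2 or limma-voom). Leaving out control replicate 1, control replicate 2 or spermidine replicate 1 ended it (adjusted p = 0.146, 0.335 and 0.091 by edgeR), as it ended that of Pdia4 (0.375, 0.368 and 0.0795).

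Hsp90b1 encodes the ER form of the HSP90 chaperone, which matures integrins and Toll-like receptors among others. Its level was 3506 and 4039 CPM without spermidine against 856.4 and 3035 CPM with it. Both spermidine libraries were below the controls, but spermidine replicate 2 lay much nearer to them than replicate 1. The log2 fold change was -0.90 ± 0.69 (adjusted p = 0.368, edgeR's quasi-likelihood test). It was -1.86 without spermidine replicate 2 (adjusted p = 0.00339, edgeR) and -0.31 without spermidine replicate 1 (0.375), over a range of 0.00339 to 0.789 in all alternatives, so the size of the difference rests on which spermidine library is used.

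Calr encodes calreticulin, the lectin chaperone of glycoproteins that also stores calcium. It had the highest level per length of the 6 tested genes, with 2001 and 2740 CPM per kb of own bases for control and 1251 and 2373 for spermidine. Spermidine replicate 2 fell between the controls, and the groups overlapped. The log2 fold change was -0.30 ± 0.64 (adjusted p = 0.755, edgeR's quasi-likelihood test), and it lay between -0.72 and 0.39 over the alternatives. A change of Calr was not shown in either direction.

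Dnajb9, an ER J-domain co-chaperone that recruits BiP to IRE1 and to unfolded clients, was the one tested gene with both spermidine libraries above both controls. Its levels were 29.2 and 45.4 CPM for control and 48.0 and 67.8 CPM for spermidine. The gap between the higher control and the lower spermidine library was small beside the spread within each group. The log2 fold change of 0.74 ± 0.58 did not pass the test (adjusted p = 0.375, edgeR's quasi-likelihood test) and was positive in each of the 16 alternatives, from 0.29 to 1.33, none of them with a call. Spermidine replicate 1 had 49 counts for Dnajb9, against 5.94 from the receptor background. At the same scaling, taking those background counts off would leave this library below control replicate 2, and the groups would overlap.

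Atf4, the translation-controlled factor downstream of PERK, had 23 and 24 control counts and 5 and 3 spermidine counts, all on its 283 own bases. That is 3.32 and 3.46 CPM against 4.89 and 2.12 CPM, with 1 spermidine library above and 1 below the controls. The log2 fold change was 0.07 ± 0.91 (adjusted p = 0.966, edgeR's quasi-likelihood test), and a difference was not detectable at this depth.

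**Figure D2:**
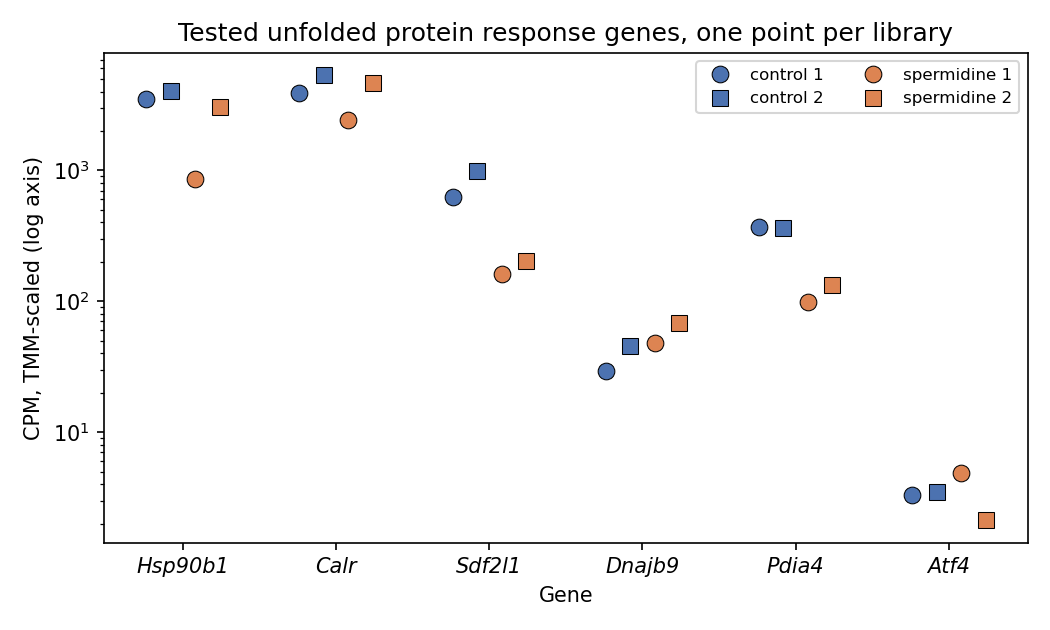
Points give the TMM-scaled level in CPM (log axis) of the 6 tested genes in each library, blue for control and orange for spermidine, circles for replicate 1 and squares for replicate 2. Sdf2l1 and Pdia4 are lower in both spermidine libraries, Hsp90b1 is low mainly in spermidine replicate 1, and Calr and Atf4 overlap.

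Of the 6 tested genes, 3 had both spermidine libraries below both controls (31.3% of all tested genes) and 1 had both above (35.6%). Ordered by mean level per kb of own bases in the controls, Calr stood above Hsp90b1 (1271 and 1464 CPM per kb), Sdf2l1 (569.2 and 894.8), Pdia4 (456.7 and 450.8), Dnajb9 (15.6 and 24.3) and Atf4 (11.7 and 12.2). Pdia4 and Atf4 keep only part of their bases. If reads crossing into shared bases receive no count, the levels of these genes are understated and their places in this order are uncertain. The neighbours Sdf2l1 and Pdia4 did not overlap but lay closer than the Sdf2l1 controls did to each other. In the spermidine libraries Sdf2l1 (146.6 and 181.7) and Pdia4 (122.0 and 163.1) overlapped.

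**Figure D3:**
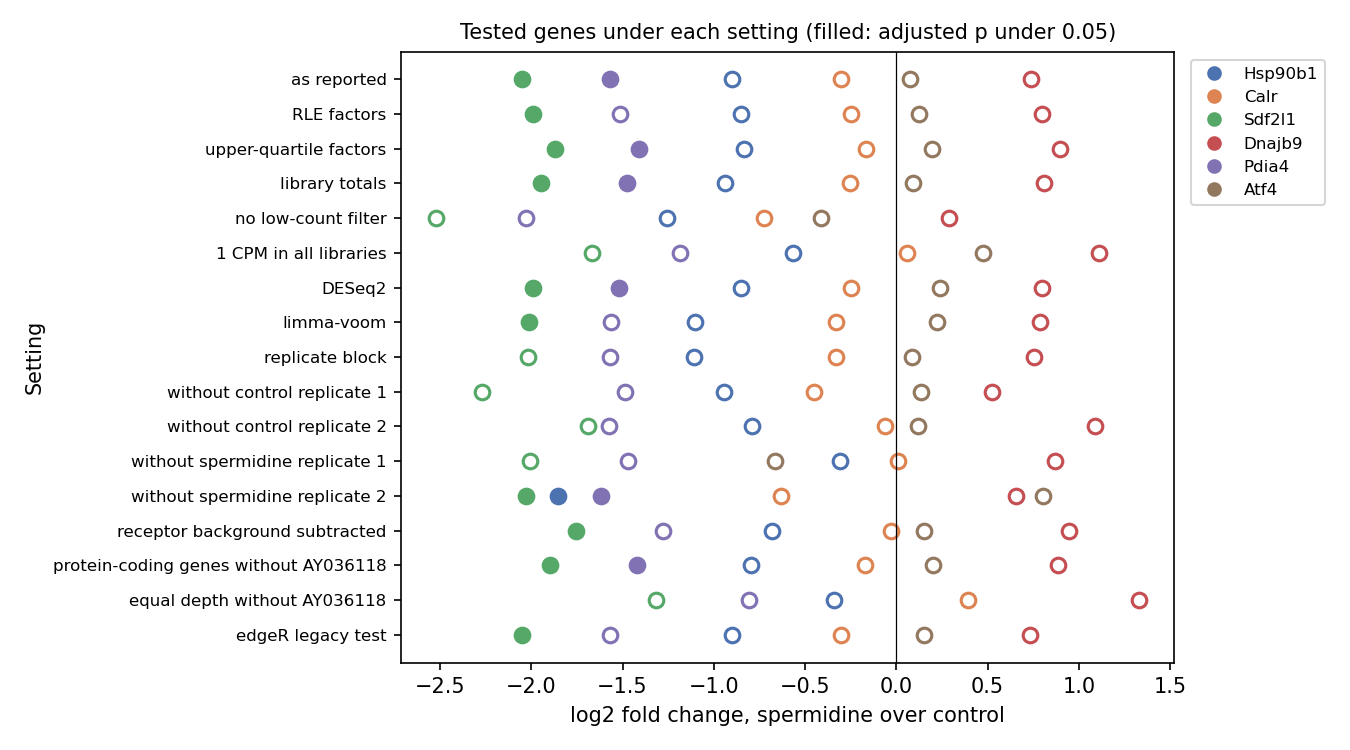
Each point gives the log2 fold change of a tested gene, spermidine over control, in the comparison as reported and in 16 alternatives, filled where the adjusted p was under 0.05. Sdf2l1, Pdia4 and Hsp90b1 stay below 0 in every row, Dnajb9 stays above 0, and Calr and Atf4 cross 0.

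Ratios between genes of the same library do not depend on library scaling, so the chaperones were also set against each other per kb of own bases. These pairs were chosen after the values were seen, from a larger set of ratios in which Dnajb9 to Sdf2l1 moved most. P4hb per 100 of Calr, also in that set, overlapped between groups (47.9 and 39.0 for control, 23.5 and 44.5 for spermidine). For each 100 of Calr there were 28.5 and 32.7 of Sdf2l1 without spermidine and 11.7 and 7.66 with it. Hsp90b1 stood at 63.5 and 53.4 per 100 of Calr for control and 24.8 and 46.4 for spermidine. Dnajb9 rested at 2.75 and 2.72 per 100 of Sdf2l1 without spermidine and 17.5 and 20.0 with it, a 6.85-fold higher ratio. The control values of this last ratio were nearly the same, and the shift was much larger than the spread within either group. The reference of this ratio, Sdf2l1, was itself called lower with spermidine. With 2 libraries against 2, an exact two-sided permutation test cannot give a p below 0.333. The ratios of Sdf2l1 and Hsp90b1 to Calr and of Dnajb9 to Sdf2l1 reached that value. So did every other ratio of the set except P4hb to Calr (0.667, same test), so reaching it sets none of them apart.

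Across the ER list, 59 of 91 genes were tested, with 4 called lower and 2 called higher, against 3.99% lower and 24.8% higher over all tested genes, and a median log2 fold change of -0.53. Of these 59, 44 had a value below 0, against 3584 of all 7836 tested genes. Without spermidine replicate 2 the list held 23 genes called lower and 0 higher, where all 7836 genes held 1208 lower and 2517 higher. Without spermidine replicate 1 it held 0 of either in edgeR (13 at an unadjusted p under 0.05), where all genes held 32 lower and 452 higher. At equal depth without AY036118 the median was -0.01 over 51 genes, against 0.21 for all genes tested there.

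Among sensors and their transcription factors, 1 of 6 tested genes rose and 0 fell. Counts this small, here and in the other role groups, are to be read against the same 24.8% of all tested genes called higher and 3.99% called lower, and show nothing particular to a group. The riser was Creb3l2, a membrane-bound factor of the ATF6 type that raises secretory pathway genes, at 41.0 and 29.1 CPM in control cells and 64.6 and 308.7 CPM with spermidine (2.47 ± 0.72, adjusted p = 0.0312, edgeR's quasi-likelihood test). Both spermidine libraries were above the controls but differed strongly from each other, and the call of Creb3l2 was lost in 7 of 16 alternatives, among them each of the 4 fits that left out a library (adjusted p 0.0566 to 0.250, edgeR). Without spermidine replicate 2 the value was 1.15. Ern1, which encodes IRE1, had 74.3 and 98.1 CPM without spermidine against 44.0 and 151.9 CPM with it, with 1 spermidine library on each side (0.26 ± 0.62, adjusted p = 0.783, edgeR). Eif2ak3, the PERK gene, had 1 and 2 control counts and 2 and 5 spermidine counts on 361 own bases, and Atf6 had 2 and 2 against 10 and 0 on 603. Neither was tested.

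Other chaperone genes were not called. Manf, a secreted ER stress factor, had 791.2 and 1151 CPM for control and 262.3 and 669.6 CPM for spermidine (-0.99 ± 0.59, adjusted p = 0.246, edgeR's quasi-likelihood test). Creld2, a cysteine-rich ER protein with an exact stress element in its promoter window, gave -0.74 ± 0.61 (adjusted p = 0.400, edgeR). For both genes the spermidine libraries lay below the controls. Canx, which encodes the membrane-bound relative of calreticulin, kept 0 own bases and had no count.

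Among disulfide isomerases and oxidases, 2 of 10 tested genes fell and 0 rose. Beside Pdia4 this was Ero1a, the oxidase that supplies disulfide bonds to the isomerases, with 1124 and 836.5 CPM in control cells and 120.4 and 114.4 CPM with spermidine. Its spermidine libraries were nearly equal and far below the controls (-2.95 ± 0.56, adjusted p = 0.00749, edgeR's quasi-likelihood test). The call of Ero1a held in 13 of 16 alternatives. P4hb, the most abundant isomerase gene tested, had 2430 and 2714 CPM without spermidine against 745.8 and 2678 CPM with it (-0.53 ± 0.68, adjusted p = 0.595, edgeR). Pdia3 and Pdia6, named after their values were seen, gave -0.75 ± 0.66 and -0.86 ± 0.61 without a call, again with spermidine replicate 1 far below replicate 2.

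Genes of ER-associated degradation were not called in either direction, with 9 of 19 tested and a median of -0.93. Vcp, the ATPase that pulls proteins out of the ER membrane, had 2079 and 1642 CPM for control and 253.5 and 719.0 CPM for spermidine (-1.87 ± 0.63, adjusted p = 0.0552, edgeR's quasi-likelihood test). Ube2g2, a ubiquitin-conjugating enzyme of this route, gave -1.28 ± 0.52 (adjusted p = 0.102, edgeR). Vcp was below both controls in both spermidine libraries and passed the threshold in 7 of 16 alternatives. In the group of translocon, signal peptidase and glycosylation genes, 1 of 12 tested genes rose and 0 fell. That gene was Rpn2, a subunit of the oligosaccharyltransferase, which rested on 5 and 4 control counts and 3 and 9 spermidine counts over 260 own bases (2.93 ± 0.84, adjusted p = 0.0268, edgeR), with 3 counts in a library being the limit that a count of 0 allows. The call of Rpn2 was lost in 9 of 14 alternatives, among them DESeq2 (adjusted p = 0.287) and each of the 4 fits that left out a library (0.0849 to 0.184, edgeR).

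In the list of ATF4 and CHOP targets, kept for the PERK branch, 1 of 13 tested genes was called lower and 0 higher. The median was -0.52. The called gene, Ppp1r15b, is not itself a readout of PERK and was listed beside its stress-induced relative Ppp1r15a, which was not called. Ppp1r15b, which helps a phosphatase reverse PERK's block on translation, had 569.2 and 691.6 CPM in control cells and 186.0 and 199.2 CPM with spermidine (-1.60 ± 0.51, adjusted p = 0.0458, edgeR's quasi-likelihood test). The groups did not overlap, and the call of Ppp1r15b was lost in 9 of 16 alternatives. Slc7a11, the cystine transporter gene, and Sesn2, an inhibitor of mTORC1, had the next smallest p and were named after their values were seen. Slc7a11 had 113 and 82 control counts against 2 and 0 with spermidine, where the receptor background would give 2.07 in spermidine replicate 1, and was not called (adjusted p = 0.0645, edgeR), passing the threshold in 1 of 14 alternatives, limma-voom (0.035). Sesn2 gave -1.46 ± 0.57 (adjusted p = 0.0894, edgeR).

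**Figure D4:**
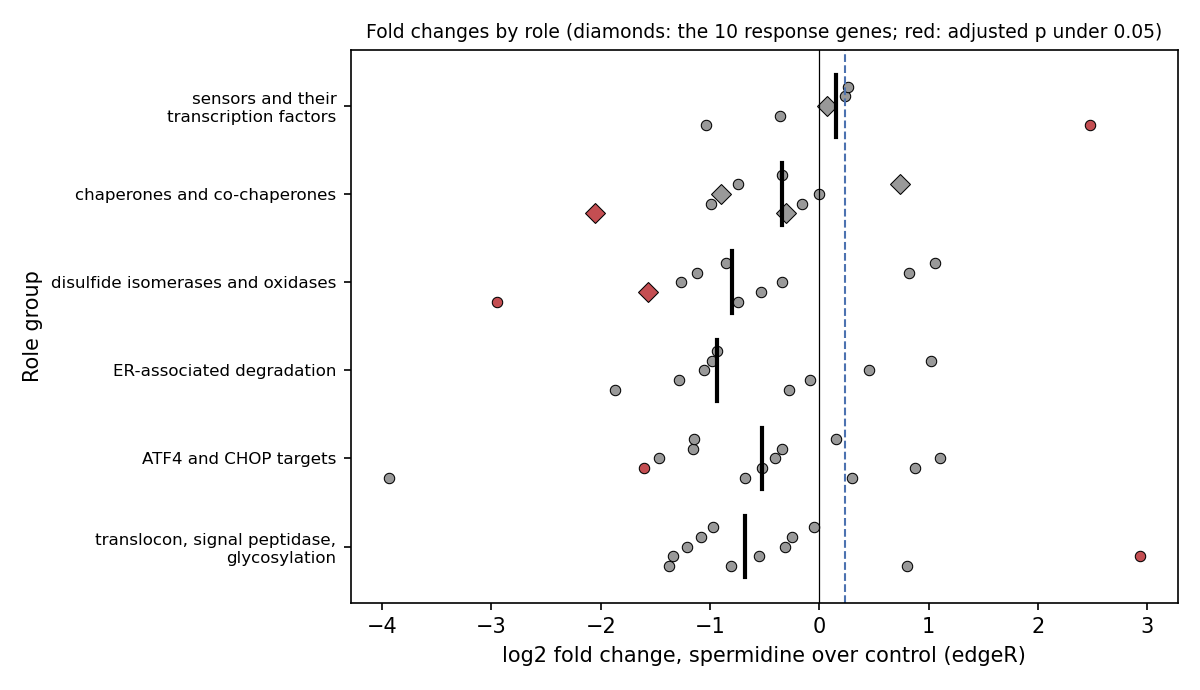
Points give the log2 fold change (spermidine over control) of the 59 tested genes by role, diamonds for the 6 tested response genes and red for an adjusted p under 0.05; black bars are group medians and the dashed line is the median of all tested genes, 0.23. Medians lie below that line in every role group, and 6 genes are called.

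The ATF4 and CHOP targets separated the control libraries from each other. Of the 13 tested, 7 were more than 2-fold higher in control replicate 2 than in control replicate 1 and 0 were more than 2-fold lower, against 11.7% and 2.83% of all tested genes. Their median difference on the log2 CPM scale was 1.15, against 0.00 for all tested genes. In the rest of the ER list, with the 6 tested response genes included, 2 of 46 tested genes passed 2-fold in that direction. Between the spermidine libraries, 6 of the 13 targets were more than 2-fold lower in replicate 2, against 30.2% of all tested genes.

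Trib3, a pseudokinase that dampens ATF4 signalling, had 87.6 and 873.0 CPM without spermidine against 285.8 and 103.1 CPM with it. Both spermidine libraries lay between the controls, and the comparison of groups gave -1.15 ± 0.98 (adjusted p = 0.412, edgeR's quasi-likelihood test). Named after their values were seen, Chac1, which breaks down glutathione, had 8.23 and 127.7 CPM in the controls, the stress factor gene Nupr1 had 5.05 and 88.5, and the transcription factor gene Atf3 had 2.89 and 39.2. In the same direction, Ddit4, an mTORC1 inhibitor, had 67.4 and 414.3 CPM and Ppp1r15a, the stress-induced relative of Ppp1r15b, had 172.6 and 498.0. In each of these 5 genes both spermidine libraries lay between the controls. Asns, the asparagine synthetase gene, had 8 and 22 control counts and 4 and 2 spermidine counts on 402 own bases.

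The 6 tested response genes did not show this gap between the controls, and Hspa5, Herpud1, Ddit3 and Xbp1 could not be judged. None of the 6 differed by more than 2-fold between control libraries, and Atf4 itself had 23 and 24 counts. Sdf2l1, Dnajb9 and Calr were higher in control replicate 2 by 0.65, 0.63 and 0.45 on the log2 CPM scale. The letters TGATGNAA, the ATF4 binding element, stood in the promoter windows of 7 of the 14 ATF4 and CHOP targets with a window, on either strand, and in 4.51% of all genes. Tested targets with the letters had a median control difference of 3.43 (6 genes, -0.45 to 4.00). Those without them had one of 0.81 (6 genes, 0.26 to 2.61), so the ranges overlapped. All 156 tested genes with the letters had a median of 0.00. The list was made from what is known of ATF4, and binding by ATF4 was not tested. Herpud1 was the only one of the 10 response genes with the letters. What set the controls apart was not tested, and the labels give no batch.

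**Figure D5:**
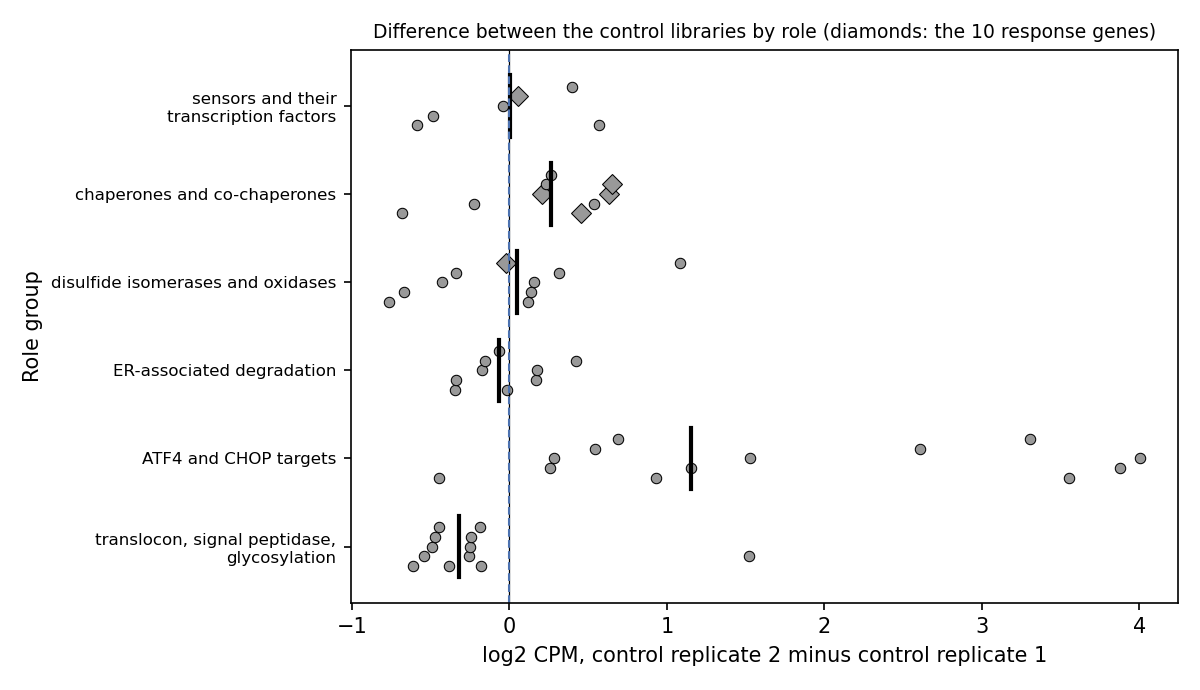
Points give the difference in log2 CPM between control replicate 2 and control replicate 1 for the 59 tested ER genes by role, diamonds for the 6 tested response genes, black bars for group medians and the dashed line for the median of all tested genes at 0. ATF4 and CHOP targets reach 4.00, while each tested response gene lies under 1.

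Markers of other cell types moved between the groups as well. The summed level of 10 granulosa and theca markers was 25.8 and 22.9 CPM for control and 1763 and 6864 CPM for spermidine, with Amh and Hsd3b1 at 0 in each library. Likewise 8 oocyte markers went from 1.44 and 2.45 to 130.2 and 2084 CPM (Zp2 and Nobox at 0). The sum of 6 stroma markers went from 68.6 and 130.6 to 1698 and 10079 CPM, and that of 5 epithelial markers from 0.289 and 0.721 to 82.2 and 233.8 CPM. For 5 endothelial markers it went from 1.44 and 0.576 to 90.0 and 116.5 CPM (Pecam1 and Cdh5 at 0). The sums of spermidine replicate 1 include its receptor background, 3.18 counts per kb, which weighs most on long markers with few counts. Spermidine replicate 2, at 0.176 counts per kb, also stood above both controls in each of these sums. In the other direction, 8 leukocyte and mast cell markers had 827.7 and 574.6 CPM in control cells and 372.9 and 177.3 CPM with spermidine (Laptm5 and Csf1r at 0), and 6 megakaryocyte and platelet markers had 1972 and 1516 against 226.1 and 138.4 CPM (Treml1 at 0). The leukocyte sum joins opposite shifts: Lyz2 had 81 and 49 control counts against 239 and 190 with spermidine, while Tyrobp went from 345 and 216 to 20 and 7, Fcer1g from 1799 and 1186 to 35 and 23, Cpa3 from 924 and 549 to 10 and 7, and Cd53 from 2586 and 1987 to 74 and 24. The platelet sum rested almost wholly on Plek (7913 and 5844 control counts against 82 and 58) and Itga2b (5738 and 4658 against 136 and 131). Pf4 did not fall with them, with 8 and 17 control counts against 12 and 7 in the much smaller spermidine libraries. Gp1bb and Gp9 had at most 3 counts in any library. Markers at 0 in each library kept few own bases, from 0 for Amh and Pecam1 to 254 for Nobox, so these zeros do not show absence. The 9 germline markers summed to 293.4 and 278.8 CPM for control and 132.1 and 362.3 CPM for spermidine. The part of these shifts in the lower level of Sdf2l1, Pdia4 and Ero1a was not tested. In bulk RNA, fewer cells of a type and less RNA per cell cannot be told apart.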

How the data were processed

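Total RNA of 4 libraries was sequenced. The submitters' processing notes list mm9, HISAT2 and DESeq2 without a role or version for any; the sources used here name no counting program. The deposited values are raw whole-number counts on 106519 rows, each a RefSeq transcript. Of these, 80.8% matched a symbol in a RefSeq table of GRCm38, and of those 88.5% fell within the span that GRCm38 gives the gene, so positions are given as GRCm38. Rows were summed per gene, and 49975 rows without own bases held at most 0.0014% of any library's counts.

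filterByExpr (10 and 15 as its count and total minimum) chose the genes. TMM factors scaled them, and edgeR 4.0.16 in R 4.3.3 (glmQLFit, legacy = FALSE) gave the quasi-likelihood test with 2 residual degrees of freedom. SE is the fold change over the root of F. Log2 CPM used a prior count of 2. TMM factors were 0.961 and 0.973 for control and 1.30 and 0.824 for spermidine. Limits from a count of 0 (3 counts) cover counting error only. The procedure was tested on simulated data. Alternatives covered scaling, filters, DESeq2 1.42.0, limma-voom (limma 3.58.1), a replicate block, each library left out, the receptor background subtracted, protein-coding genes without AY036118 and equal depth (554572 counts). The edgeR legacy test was added after the data were seen.

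The 10 genes, the ER list and the markers were chosen with earlier results of these data known. Named besides the 10 were, per role group, up to 4 called genes or else the 2 with the smallest p, and Ern1, Eif2ak3, Atf6, Trib3, Asns, Canx and P4hb.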

Additional observations from a re-analysis of the deposited data

How the results depend on the processing

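Against 2 response genes called, the number was 1 with RLE scaling, limma-voom, the receptor background subtracted and the edgeR legacy test. It was 0 with no low-count filter, with 1 CPM asked of all libraries, with the replicate block and at equal depth without AY036118 (2 at an unadjusted p under 0.05 in each, edgeR), and 0 to 3 when a library was left out. Against 6 of the ER list, it was 0 with no filter (9 at an unadjusted p under 0.05), 2 with 1 CPM in all libraries, 1 with the replicate block, 2 at equal depth, 3 with the legacy test and 0 to 23 with a library left out. Against 2256 of all genes, it was 0 with no filter (4255 at an unadjusted p under 0.05), 275 with 1 CPM in all libraries, 1492 with the background subtracted, 840 at equal depth and 0 to 3725 with a library left out. Where 1 library was dropped, the fit assumed that the lone library varies like the other group. The cause was not tested.

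With the replicate block, where deviations of same-numbered libraries correlated at -0.03, 1775 of all genes were called, and Sdf2l1 had an adjusted p of 0.0712 and Pdia4 of 0.119 (edgeR); the samples share only a number.

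The values that changed sign belong to genes that were not called in the comparison as reported. With no filter they were -0.41 for Atf4, -0.11 for Ern1, -0.18 for Asns and -0.30 for Ddit4. With 1 CPM in all libraries they were 0.0575 for Calr and 0.0764 for Atf3, and at equal depth 0.39 for Calr, 0.0524 for P4hb, 0.59 for Atf3 and 0.20 for Ppp1r15a. Atf3 also had 0.0075 with limma-voom and 0.24 with the replicate block. With a library left out, the ranges were -0.67 to 0.81 for Atf4, -0.63 to 0.0071 for Calr, -0.68 to 0.82 for Ern1, -2.21 to 1.31 for Trib3, -0.60 to 1.20 for Asns, -1.50 to 0.0637 for P4hb, -1.95 to 1.91 for Chac1, -2.30 to 2.49 for Atf3, -0.56 to 1.99 for Ddit4 and -1.02 to 0.44 for Ppp1r15a. Spermidine totals of 787600 and 1718944 counts limit the weakly counted genes most, Atf4, Asns and Rpn2 among them.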
